A study of Homo sapiens with 6 samples.

Results

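Chromatin accessibility was examined at 9 genes of the p53 stress response, CDKN1A, BTG2, GADD45A, MDM2, BBC3, PMAIP1, BAX, FAS and SESN1, in 6 ATAC-seq libraries of human pluripotent stem cells. The genes are a named list, chosen with earlier results of these data known, and the rule for their summits uses no measured value. Every summit inside a gene or within 20 kb of it was taken, with the genes placed by RefSeq on GRCh38, which gave 200 of the 356720 summits in the 6 libraries. Summits of different libraries within 250 bp of each other were treated as 1 locus, and the 200 summits formed 57 of 123131 loci. ATAC-seq inserts adapters into open chromatin with the Tn5 transposase, and a summit is the base of strongest signal within a called peak of open chromatin.

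All libraries were made from the H1 line of human embryonic stem cells, grown in mTeSR1 medium on Matrigel, infected with lentivirus carrying a short hairpin RNA and selected with puromycin. Hairpins shHNRNPU #1 and shHNRNPU #2 target HNRNPU, which encodes a nuclear protein that binds RNA and chromatin, and shLUC, against luciferase, was the control. Each hairpin was given as repeat 1 and repeat 2, so 4 shHNRNPU libraries were compared with 2 shLUC libraries. The groups rest on 1 cell line and 2 hairpins, no measure of HNRNPU itself was used here, and the labels do not say whether repeats were separate cultures, so p-values measure only the spread between these libraries.

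The transcription factor p53 is kept scarce in unstressed cells because MDM2 marks it for degradation. DNA damage and other stresses stabilise it, and it then binds paired copies of a short DNA element near its target genes. Its targets stop the cell cycle, trigger apoptosis, restrain growth signalling or, through MDM2, switch p53 off again. Human pluripotent stem cells are known to enter apoptosis readily when p53 is activated. Open chromatin at these genes is not a measure of their transcripts or of p53.

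The lists held between 52168 and 63519 summits a library, with medians between 6.91 and 8.43 of a MACS2 significance score on a −log10 scale. The number of reads behind them is unknown, so summits are compared by their percentile, which is the rank of a score within its own library on a scale that ends at 100. Each of the 8 pluripotency marker genes had a summit in all 6 libraries, with 38 to 39 summits summed over the list in the shHNRNPU libraries and 38 in each shLUC library. Single markers went different ways under the equal sums, with NANOG at 2, 2, 1 and 1 summits against 4 and 3, and SALL4 at 4 in each shHNRNPU library against 3 and 3. For 4 endoderm markers, all of which also had a summit in every library, the sum was 23 to 32 with shHNRNPU and 19 to 20 with shLUC, which did not overlap. Taken singly, only GATA4 separated the groups, with 14, 14, 13 and 12 summits against 11 and 9. At SOX17, FOXA2 and CXCR4 the groups overlapped or touched. Single genes separated in this way elsewhere too. Among 18733 protein-coding genes with a summit in the window, 3.54% had more summits in every shHNRNPU than in every shLUC library and 3.92% had fewer. How often a sum over 4 genes separates was not worked out, so no shift between cell types can be read from these counts. The sums for 4 neuroectoderm markers (17 to 30 and 19 to 20), 4 mesoderm markers (11 to 14 and 11 to 11) and 4 fibroblast markers (15 to 17 and 12 to 16) overlapped between the groups or touched. Every marker of these lists also had a summit in all 6 libraries, so presence did not tell the lists of cell types apart. The part of other cell types in the results on the p53 genes was not tested.

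Across the 9 genes together, the shHNRNPU #1 libraries held 34 and 34 summits, the shHNRNPU #2 libraries 32 and 31, and the shLUC libraries 32 and 37. The groups overlapped, with a mean of 32.8 ± 1.5 (SD, n = 4) for shHNRNPU against 34.5 ± 3.54 (SD, n = 2) for shLUC. As a share of each library the summits made up 0.0563% ± 0.00267 and 0.0559% ± 0.00625. Of the 57 loci, 18 were present in all 6 libraries, which is 31.6% compared with 20.7% of all loci, and 16 were in a single library, 28.1% compared with 38.0%. The 18 shared loci had a median mean percentile of 81.4, and all 25519 loci shared by 6 libraries had 73.7. These sets are unlike, because the 57 loci come from windows around genes and all loci include those far from any gene. Of the 18 shared loci, 8 lay within 2000 bp of a start of the 9 genes or, at GADD45A, of a gene end. Every gene had a locus within 2000 bp of a start (for GADD45A, of a gene end), and at 7 of the 9 it was found in all 6 libraries, with BBC3 and FAS the exceptions. Among 15843 protein-coding genes with a listed start, 80.2% had a locus within that distance, and 59.2% had one present in all 6 libraries.

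**Figure D1:**
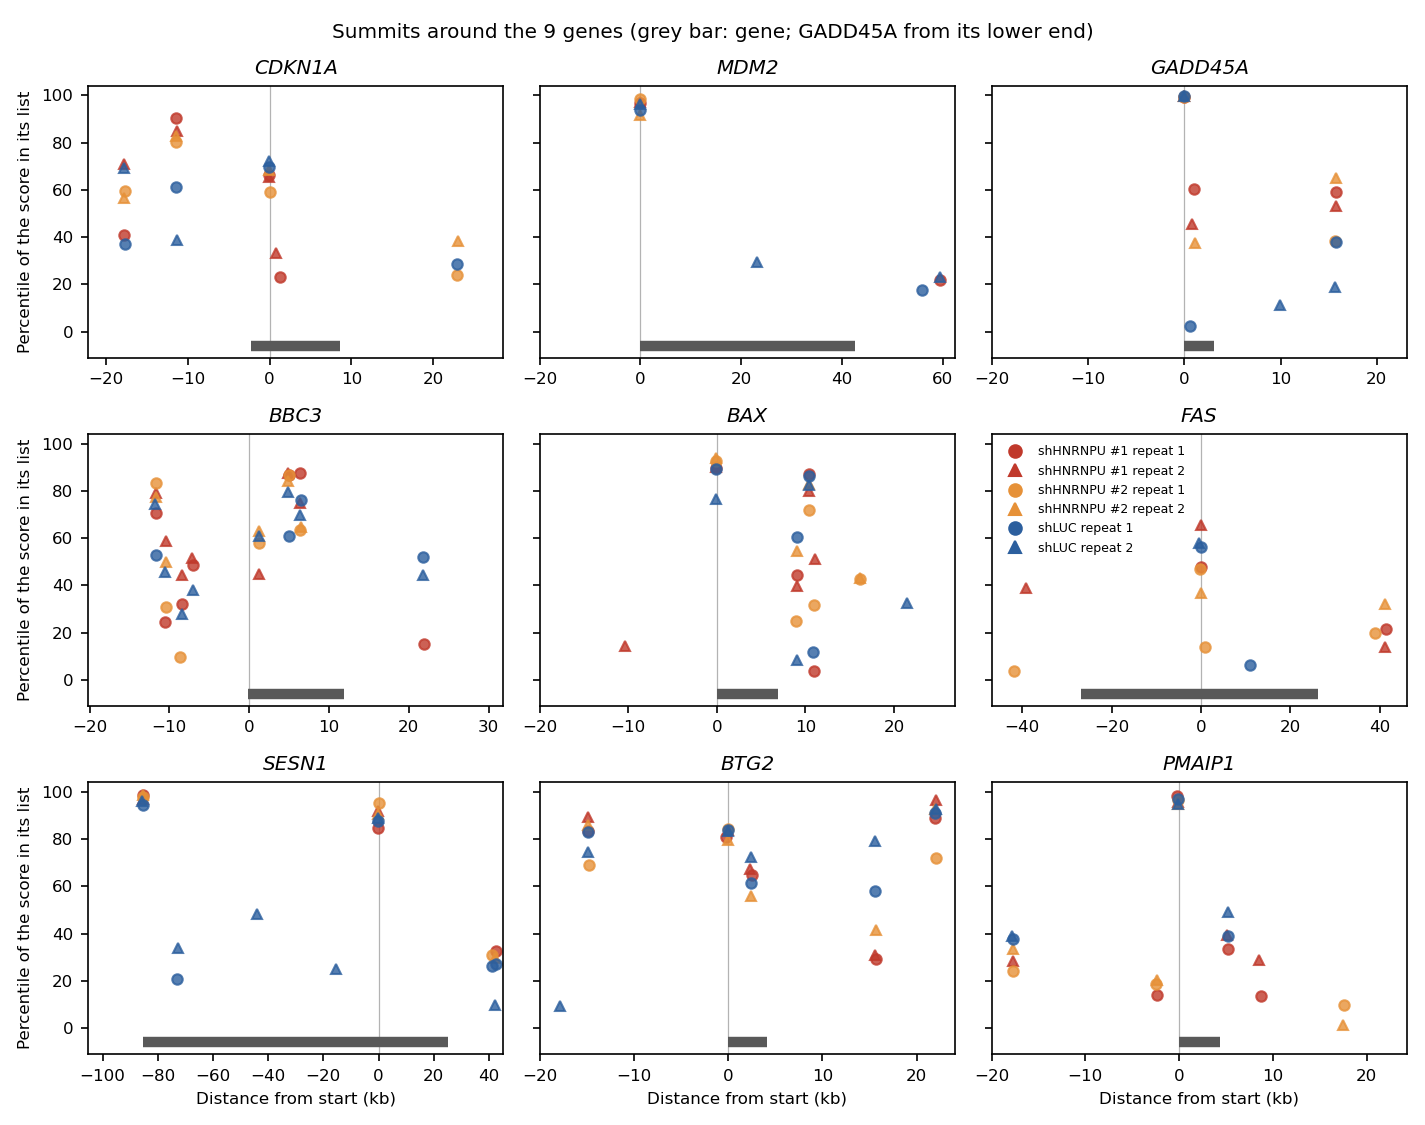
Each summit at the 9 genes, by distance in kb from a start of the gene in the direction of transcription (horizontal axis) and percentile of its score within its library (vertical axis), with colour for the hairpin, circles for repeat 1, triangles for repeat 2 and the gene as a grey bar. GADD45A, which has no listed start here, is drawn in coordinate order from its lower end, and SESN1 from its inner start at 109009552. Summits of all 6 libraries stand near 0 at every gene but BBC3, most of them at high percentiles, and in SESN1 the 4 points between its starts are all shLUC.

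The DNA is shown for some of the starts on which shared loci lay. The sequences are RefSeq promoters of GRCh38.p14, 250 bases before the start and 50 from it, on the strand of the gene and written 5′ to 3′. Of the 9 genes, 8 were in the promoter table and GADD45A was not. Capitals mark letters of the GC box (GGGCGG), the CCAAT box (CCAAT), the E-box (CACGTG), the TATA box (TATAAA) and the p53 decamer, each searched on both strands, and matches may overlap.

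CDKN1A, chr6:36678464-36678763, plus strand: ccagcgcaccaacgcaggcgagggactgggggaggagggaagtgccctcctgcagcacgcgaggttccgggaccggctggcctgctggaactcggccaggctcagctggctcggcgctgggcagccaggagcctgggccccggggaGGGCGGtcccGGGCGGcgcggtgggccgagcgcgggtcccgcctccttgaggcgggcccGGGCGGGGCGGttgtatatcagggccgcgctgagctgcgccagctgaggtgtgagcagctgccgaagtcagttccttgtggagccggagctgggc
MDM2, chr12:68807922-68808221, plus strand: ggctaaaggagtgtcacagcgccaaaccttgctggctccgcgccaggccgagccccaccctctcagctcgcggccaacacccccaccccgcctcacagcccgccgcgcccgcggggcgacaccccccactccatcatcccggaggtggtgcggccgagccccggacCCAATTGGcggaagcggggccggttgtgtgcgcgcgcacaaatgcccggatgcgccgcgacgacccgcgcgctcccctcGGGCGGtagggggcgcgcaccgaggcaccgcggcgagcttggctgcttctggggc
BAX, chr19:48954625-48954924, plus strand: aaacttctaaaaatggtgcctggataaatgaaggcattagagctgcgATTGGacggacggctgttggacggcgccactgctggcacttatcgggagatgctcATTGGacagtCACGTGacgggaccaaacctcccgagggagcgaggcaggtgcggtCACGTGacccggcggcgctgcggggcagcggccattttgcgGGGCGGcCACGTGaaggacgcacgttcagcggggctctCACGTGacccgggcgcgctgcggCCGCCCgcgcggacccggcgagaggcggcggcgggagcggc
PMAIP1, chr18:59899746-59900045, plus strand: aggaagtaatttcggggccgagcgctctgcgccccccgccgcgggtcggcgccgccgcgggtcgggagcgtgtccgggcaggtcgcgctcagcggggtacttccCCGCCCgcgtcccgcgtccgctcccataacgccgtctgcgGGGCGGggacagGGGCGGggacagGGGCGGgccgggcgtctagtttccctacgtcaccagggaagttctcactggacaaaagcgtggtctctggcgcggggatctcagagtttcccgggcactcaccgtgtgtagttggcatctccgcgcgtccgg
SESN1, outer start, chr6:109094797-109095096, minus strand: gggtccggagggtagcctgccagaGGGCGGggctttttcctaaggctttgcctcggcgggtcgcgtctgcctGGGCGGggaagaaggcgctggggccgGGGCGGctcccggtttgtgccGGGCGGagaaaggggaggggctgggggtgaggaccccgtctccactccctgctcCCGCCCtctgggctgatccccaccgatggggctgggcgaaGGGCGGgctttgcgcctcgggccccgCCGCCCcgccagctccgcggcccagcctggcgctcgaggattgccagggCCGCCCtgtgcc

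Each of the 5 windows held a summit in all 6 libraries. The summits fell between -135 and -12 bp of the CDKN1A start, -114 and -60 bp of the MDM2 start, -114 and -40 bp of the BAX start, -184 and -120 bp of the PMAIP1 start and -248 and -140 bp of the outer SESN1 start. The windows were rich in G and C, at 74.3%, 74.7%, 67.3%, 71.3% and 75.0% in that order, where the median of all promoters was 62.3%. CDKN1A and PMAIP1 each held 4 GC boxes, SESN1 8, BAX 2 and MDM2 1, and a GC box was found in 56.3% of all 22078 promoters. BAX also held 4 E-boxes and 2 CCAAT boxes, and MDM2 a pair of overlapping CCAAT boxes on opposite strands. An E-box was present in 8.32% of promoters, a CCAAT box in 34.7% and a TATA box, which none of these 5 windows held, in 9.5%. The BTG2 window, not printed, also held a summit in all 6 libraries, between -218 and -42 bp of its start. It had 73.3% G and C, 3 GC boxes and 1 CCAAT box.

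The 8 genes in the promoter table had 1 window each, except MDM2 with 4 and FAS and SESN1 with 3 each. The p53 decamer was matched in 6.23% of all promoters and in 2 of these windows, neither of which is printed in full above. One was the FAS window of the start at 88991431, with GGACAAGCCC at -122, and the other was the innermost SESN1 window, of the start at 109008988, with GGACAAGTCT at -49. No library had a summit inside either window. These are exact matches of letters, and sites farther from a start lie outside the windows searched. A p53 site that departs from the decamer by any letter was not counted, also inside the windows. The 4 MDM2 windows had no match, which does not show that they lack a p53 site.

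CDKN1A, which encodes the p21 inhibitor of cyclin-dependent kinases and is the main p53 target in cell cycle arrest, had summits in every library at 3 loci. The gene spans chr6:36676463-36687332 on the plus strand. Over the whole window there were 4 summits in each shHNRNPU library and 4 and 3 with shLUC, a difference of +0.50 (p = 0.667, two-sided exact permutation test over the 6 libraries).

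The locus 11421 bp before the CDKN1A start, at 36667293 and over no listed gene, had the widest separation of the shared loci at the 9 genes. Its percentiles were 90.5 and 84.8 with shHNRNPU #1, 80.3 and 82.7 with shHNRNPU #2, and 61.1 and 38.9 with shLUC. All 4 shHNRNPU values lay above both shLUC values, which themselves differed from each other by more than the shHNRNPU libraries did. The means were 84.6 ± 4.36 (SD, n = 4) against 50.0 ± 15.7 (SD, n = 2), a difference of +34.6 percentile points (p = 0.133, exact permutation test, Benjamini-Hochberg adjusted p = 0.538 over 25519 loci). The scores behind them were 32.7 and 23.5 with shHNRNPU #1, 16.7 and 23 with shHNRNPU #2, and 10.2 and 5.45 with shLUC, and they did not overlap either.

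At the CDKN1A start itself the order of the groups was the opposite. The long noncoding RNA gene DINOL ends at 36678559, just before this start, so the signal cannot be assigned to CDKN1A alone. The locus at 36678686, 28 bp before the start, had percentiles of 66.2 and 65.4 with shHNRNPU #1, 59 and 68.4 with shHNRNPU #2, and 69.7 and 72.4 with shLUC. Every shHNRNPU value was below both shLUC values, with a difference of -6.31 points in the mean (p = 0.133, exact permutation test, adjusted p = 0.538), but the raw scores overlapped, and so did the percentiles when all lists were cut to 52168 summits (difference -5.19, p = 0.40, exact permutation test) or to scores of at least 5 (-8.07, p = 0.267, exact permutation test). With matching within 100 bp the locus at 36678686 was no longer in all 6 libraries. The locus 17831 bp before the start overlapped between the groups, with 41 and 70.9 with shHNRNPU #1, 59.5 and 56.6 with shHNRNPU #2, and 37.2 and 69.2 with shLUC.

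BTG2, an antiproliferative gene, lies at chr1:203305519-203309602 on the plus strand and had 5 and 5 summits with shHNRNPU #1, 3 and 5 with shHNRNPU #2, and 5 and 6 with shLUC. The groups overlapped (difference -1, p = 0.533, exact permutation test). Its start locus at 203305470 had percentiles of 80.9 and 83.7 with shHNRNPU #1, 84.4 and 79.6 with shHNRNPU #2, and 83.9 and 83.4 with shLUC, a difference of -1.54 points. The long noncoding RNA gene BTG2-DT reaches to 203305325, over the summit of shHNRNPU #1 repeat 1 at 203305301, so this signal cannot be assigned to BTG2 alone.

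The shared BTG2 loci 14866 bp before the start and 22014 bp after it also overlapped between the groups. The first ranged from 68.9 to 89.2 over the 6 libraries and the latter from 71.9 to 96.8, in each case lowest in shHNRNPU #2 repeat 1. That library also lacked a summit at 203307937, inside the gene, and at 203321135, which were present in the other 5 libraries. At 203321135, a locus singled out after its values were seen, the 3 shHNRNPU libraries with a summit had percentiles of 29.1, 31.1 and 41.4, and shLUC had 58.0 and 79.1.

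GADD45A, which encodes a stress sensor linked to cell cycle arrest and DNA repair, lies at chr1:67685201-67688334. There were 3 and 3 summits with shHNRNPU #1, 2 and 3 with shHNRNPU #2, and 3 and 3 with shLUC (difference -0.25, p = 1.00, exact permutation test). The locus 27 bp below the lower gene end, at 67685174, had the highest percentiles of the start loci and, among those in all 6 libraries, the least spread in place, with its 6 summits within 15 bp. Its percentiles were 99.3 and 99.6 with shHNRNPU #1, 99.5 and 99.9 with shHNRNPU #2, and 99.9 and 99.7 with shLUC, so it stood close to the top of every list in both groups.

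A weaker GADD45A locus at 67700918, 12584 bp beyond the higher gene end, separated the groups by percentile. The values were 58.9 and 53.3 with shHNRNPU #1, 38.3 and 65.1 with shHNRNPU #2, and 37.8 and 19 with shLUC. The shHNRNPU libraries were higher, at 53.9 ± 11.5 (SD, n = 4) against 28.4 ± 13.2 (SD, n = 2), a difference of +25.5 points (p = 0.133, exact permutation test, adjusted p = 0.538). The difference was 34.9 points without shLUC repeat 1 and 16.1 without shLUC repeat 2. The scores were low and overlapped, with 5.21 in the lowest shHNRNPU library and 5.81 in the higher shLUC library, and with scores of at least 5 alone the locus was no longer in all 6 libraries.

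MDM2, the ubiquitin ligase that degrades p53 and is itself a p53 target, lies at chr12:68808172-68850686 on the plus strand. It had 2 and 1 summits with shHNRNPU #1, 1 and 1 with shHNRNPU #2, and 2 and 3 with shLUC (difference -1.25, p = 0.267, exact permutation test). With scores of at least 5 alone every library had 1 summit, a difference of 0. The start locus at 68808064, 108 bp before the outermost start, had percentiles of 96.7 and 97.4 with shHNRNPU #1, 98.4 and 91.8 with shHNRNPU #2, and 94 and 96.5 with shLUC, with both groups spread over the same range (difference +0.809 points).

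The starts farther inside MDM2, at 68809017 and 68809024, had no summit within their promoter windows in any library. The other MDM2 summits were weak and rarely repeated. They were at 68831366 in shLUC repeat 2, at 68864035 in shLUC repeat 1 and at 68867743 in shHNRNPU #1 repeat 1 and shLUC repeat 2, with percentiles between 17.7 and 29.6. The last of these was 17057 bp from the gene, just inside the window, and the nearest locus left out, 21365 bp from the gene, was in 1 library at a percentile of 11.3. The loci at 68864035 and 68867743 lay over another gene, CPM.

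BBC3, which encodes the pro-apoptotic BH3-only protein PUMA, lies at chr19:47220824-47232860 on the minus strand and had the most summits of the 9 genes. There were 7 and 7 with shHNRNPU #1, 6 and 5 with shHNRNPU #2, and 4 and 8 with shLUC, so the shLUC libraries enclosed the rest (difference +0.25, p = 1.00, exact permutation test). The RefSeq promoter window of BBC3 held 48.0% G and C and no summit. The locus nearest the start, at 47231404, 1263 bp inside the gene, was absent from shHNRNPU #1 repeat 1 and shLUC repeat 1 and had percentiles of 44.8, 58.1, 62.8 and 61.1 in shHNRNPU #1 repeat 2, both shHNRNPU #2 libraries and shLUC repeat 2.

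A stronger locus at 47227793, 4874 bp inside BBC3, separated the groups. Its percentiles were 86.9 and 87.7 with shHNRNPU #1, 86.7 and 84 with shHNRNPU #2, and 61 and 79.5 with shLUC. The 4 shHNRNPU libraries lay within a narrow range above both shLUC libraries, at 86.3 ± 1.61 (SD, n = 4) against 70.3 ± 13.1 (SD, n = 2), a difference of +16.1 points (p = 0.133, exact permutation test, adjusted p = 0.538). The difference was 25.3 points without shLUC repeat 2 and 6.85 without shLUC repeat 1, so its size rests on shLUC repeat 1, while the direction was the same.

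The remaining shared BBC3 loci overlapped between the groups. At 47226266, which is 6401 bp inside the gene, the percentiles were 87.5 and 74.8 with shHNRNPU #1, 63.6 and 64.8 with shHNRNPU #2, and 76 and 69.9 with shLUC. At 47244349, located 11682 bp before the start, they were 70.7 and 79.1 with shHNRNPU #1, 83.4 and 77.4 with shHNRNPU #2, and 52.8 and 74.5 with shLUC. The latter is set out only because it was a further shared locus of the window, and its groups overlapped through shLUC repeat 2. Loci that differed in presence went both ways. At 47210903, 9921 bp beyond the gene, shLUC had percentiles of 51.9 and 44.3, and of the shHNRNPU libraries only shHNRNPU #1 repeat 1 had a summit, at 15.1. At 47243119 all 4 shHNRNPU libraries had a summit, as did shLUC repeat 2, but not shLUC repeat 1.

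PMAIP1, which encodes the BH3-only protein NOXA, lies at chr18:59899996-59904305 on the plus strand. It had 4 summits in each of the 4 shHNRNPU libraries and 3 in each shLUC library. The groups did not overlap, and the difference was +1.00 (p = 0.133, exact permutation test, adjusted p = 1.00 over 18733 genes). With scores of at least 5 alone the direction turned, to 2 and 2, 1 and 2, and 3 and 3 summits with shHNRNPU #1, shHNRNPU #2 and shLUC (difference -1.25, p = 0.133, exact permutation test).

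The PMAIP1 loci that differed in presence went both ways. A locus at 59897673, 2323 bp before the start, was present in shHNRNPU #1 repeat 1 and both shHNRNPU #2 libraries, at percentiles of 14.2, 18.6 and 20.5, and in neither shLUC library. A locus at 59908525 was seen with shHNRNPU #1 alone, at 13.6 and 28.9, and a locus at 59917558 with shHNRNPU #2 alone, at 9.6 and 1.16. In the other direction, a locus at 59905160, 855 bp beyond the gene, was present in both shLUC libraries, at 38.9 and 49.1, and with shHNRNPU #1, at 33.6 and 39.3, but in neither shHNRNPU #2 library, and a locus at 59882219 was absent from shHNRNPU #1 repeat 1 alone. All summits at the loci without shLUC scored under 5, and the shLUC summits at 59905160 and 59882219 scored 5.49 to 6.83. The start locus at 59899812 was strong in every library, with 98.3 and 95.8 with shHNRNPU #1, 96.7 and 94.9 with shHNRNPU #2, and 97.2 and 95 with shLUC, and the groups overlapped.

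BAX, which encodes the effector that permeabilises the outer mitochondrial membrane, lies at chr19:48954875-48961798 on the plus strand and had 4 and 5 summits with shHNRNPU #1, 5 and 4 with shHNRNPU #2, and 4 and 4 with shLUC (difference +0.50, p = 0.80, exact permutation test). The start locus at 48954835, 40 bp before the start and inside the printed promoter, had percentiles of 89.9 and 90.0 with shHNRNPU #1, 92.7 and 93.7 with shHNRNPU #2, and 89.4 and 76.6 with shLUC. All 4 shHNRNPU libraries were above both shLUC libraries, at 91.6 ± 1.93 (SD, n = 4) against 83 ± 9.05 (SD, n = 2), a difference of +8.54 points (p = 0.133, exact permutation test, adjusted p = 0.538). The lowest shHNRNPU value was close to that of shLUC repeat 1, and without shLUC repeat 2 the difference was 2.14 points, against 14.9 without shLUC repeat 1.

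The other shared loci in the BAX window lay beyond the gene, at 48963898 and 48965238, by the start of FTL, which encodes the ferritin light chain. At 48965238, located 71 bp from the FTL start, the percentiles were 87.1 and 80.0 with shHNRNPU #1, 72 and 83.1 with shHNRNPU #2, and 86.4 and 82.5 with shLUC, and the groups overlapped. A locus at 48971066, over GYS1, was found with shHNRNPU #2 alone, at 42.6 and 43.0.

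FAS, which encodes a death receptor of the extrinsic apoptosis pathway, lies at chr10:88964050-89017059 on the plus strand and overlaps ACTA2 and FAS-AS1. It alone among the 9 genes had no locus in all 6 libraries, and 6 of its 8 loci were each in a single library. The summit numbers were 2 and 3 with shHNRNPU #1, 4 and 2 with shHNRNPU #2, and 2 and 1 with shLUC (difference +1.25, p = 0.40, exact permutation test).

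The FAS locus at 88990977, 63 bp after a start, had percentiles of 47.8 and 65.6 with shHNRNPU #1, 47.0 and 36.6 with shHNRNPU #2, and 56.1 in shLUC repeat 1. In shLUC repeat 2 the nearest summit was instead at 88990496, which is 302 bp before the outermost start of the 3 listed and had a percentile of 57.9, so all 6 libraries had a summit near the FAS starts but not at 1 matched locus. An ACTA2 start lay 360 bp from 88990977 and 841 bp from 88990496, so these signals cannot be assigned to either gene. A further locus at 89032115, 15056 bp beyond the gene, was in shHNRNPU #1 repeat 1, shHNRNPU #1 repeat 2 and shHNRNPU #2 repeat 2 and in no shLUC library.

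SESN1, which encodes a sestrin that restrains mTORC1 signalling, lies at chr6:108984309-109094846 on the minus strand. It had 3 and 2 summits with shHNRNPU #1, 3 and 3 with shHNRNPU #2, and 5 and 6 with shLUC. Every shHNRNPU library had fewer than both shLUC libraries, and the difference of -2.75 in the mean was the widest difference in summit number of the 9 genes (p = 0.133, exact permutation test, adjusted p = 1.00 over 18733 genes). With scores of at least 5 alone the numbers were 3 and 2, 2 and 3, and 2 and 3, a difference of 0 (p = 1.00, exact permutation test).

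Of the SESN1 loci found more often with shLUC, 3 lay within the long gene body and 2 beyond the gene. A locus at 109082299, which is 12547 bp inside the gene from the outer start, was present in shLUC repeat 1 and repeat 2 at percentiles of 20.7 and 33.9 and in no shHNRNPU library, whose nearest summit was 12687 bp away. The shLUC summits there were 178 bp apart, with scores of 3.82 and 4.78, so the locus was not called with matching within 100 bp or with scores of at least 5. Loci at 109024984 and 109053503 were in shLUC repeat 2 alone, at 24.9 and 48.5. Beyond the gene, the locus at 108967031 was in both shLUC libraries and in shHNRNPU #1 repeat 1 and shHNRNPU #2 repeat 2, and that at 108968505 was in shLUC repeat 1 and shHNRNPU #2 repeat 1. Both lay over another gene, ARMC2, which also overlaps SESN1 at 109024984 and at the inner start. The summit number of this window is thus not that of SESN1 alone.

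Both shared SESN1 loci lay at starts. At the outer start the summit at 109094986 was also 177 bp from the start of CEP57L1, which is transcribed in the opposite direction, so its signal cannot be assigned to either gene. Its percentiles were 98.9 and 97.1 with shHNRNPU #1, 97.7 and 98.5 with shHNRNPU #2, and 94.3 and 96.3 with shLUC, which did not overlap (difference +2.70 points, p = 0.133, exact permutation test, adjusted p = 0.538). Without shLUC repeat 1 the difference was 1.71 points, and with matching within 100 bp the locus was no longer in all 6 libraries. At the inner start the locus at 109009491 had 84.9 and 92 with shHNRNPU #1, 95.4 and 90.8 with shHNRNPU #2, and 87.6 and 88.9 with shLUC, and the groups overlapped.

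**Figure D2:**
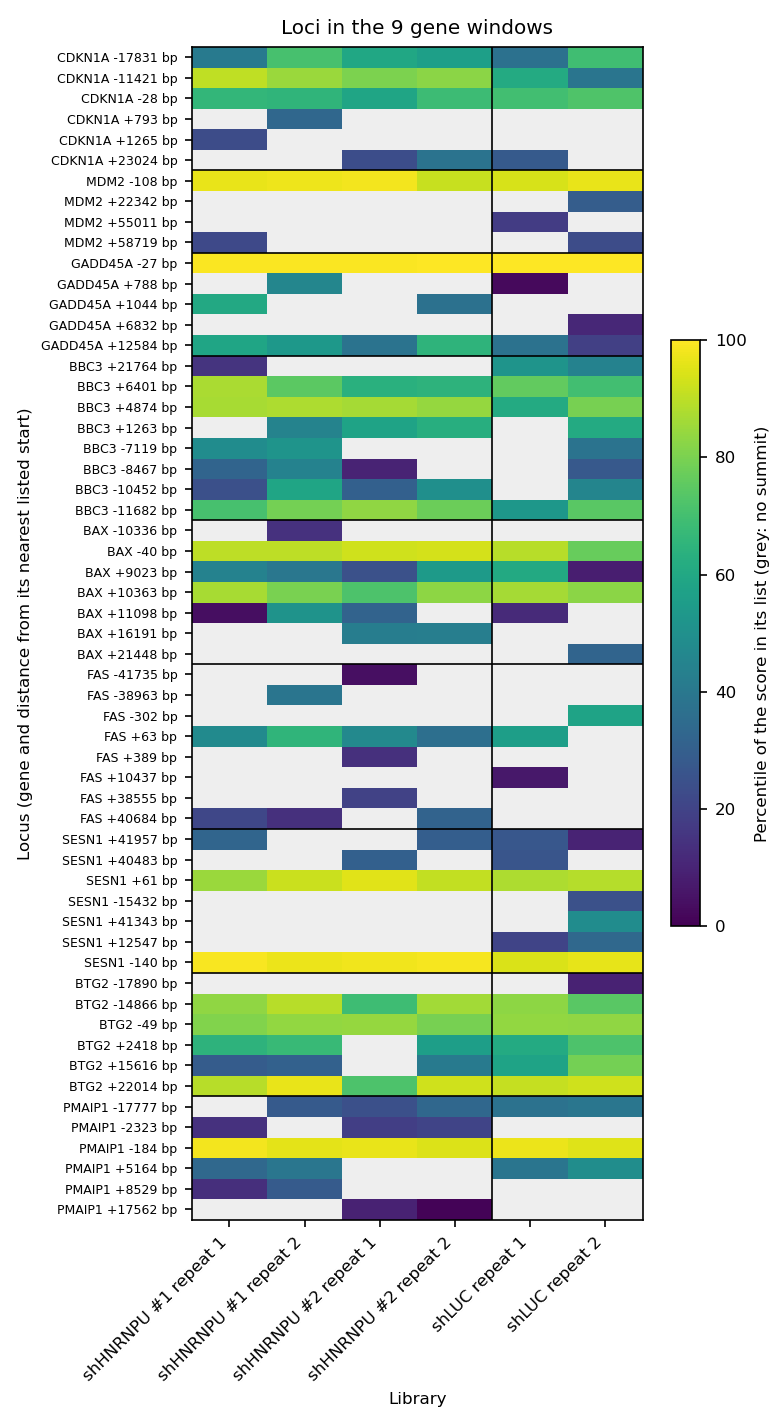
Percentile of each of the 57 loci (rows, by gene and distance in bp from the nearest start or, for GADD45A, gene end) in each of the 6 libraries (columns), on a colour scale from 0 (dark violet) to 100 (yellow), with grey cells where no summit was matched. The 18 rows without a grey cell hold most of the high percentiles, and FAS has none of them.

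The 9 genes were then counted as a list beside all genes and loci. Of all loci, 1.93% were lost, meaning present in both shLUC libraries and in no shHNRNPU library, and 1 of the 57 loci (1.75%), the SESN1 locus at 109082299, was lost. Gained loci, present in all 4 shHNRNPU libraries and no shLUC library, made up 0.88% of all loci and 0 of the 57. Among 18733 protein-coding genes with a summit in the window, 3.92% had fewer summits in every shHNRNPU than in every shLUC library and 3.54% had more. Of the 9 genes 1, SESN1, had fewer and 1, PMAIP1, had more, which is 11.1% in each direction but a single gene, and 7 overlapped. The median difference was +0.25 summits over the 9 genes and 0 over all genes.

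**Figure D3:**
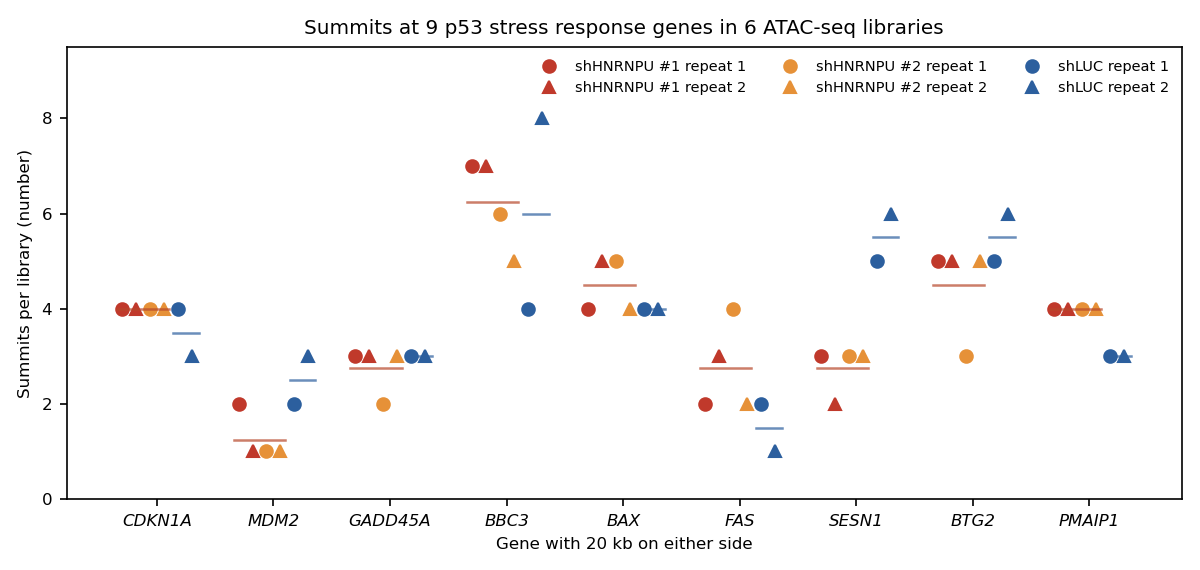
Number of summits within 20 kb of each of the 9 genes (vertical axis), with 1 point for each of the 4 shHNRNPU and 2 shLUC libraries and a bar at each group's mean. SESN1 has 5 and 6 summits with shLUC and 2 to 3 with shHNRNPU, PMAIP1 has 3 with shLUC and 4 with shHNRNPU, and the groups overlap at the other 7 genes.

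For loci present in all 6 libraries, 10.9% of 25519 had a higher percentile in every shHNRNPU library and 13.9% a lower one. Of the 18 such loci at the p53 genes, 5 were higher (27.8%), namely the loci 11421 bp before CDKN1A, beyond GADD45A, inside BBC3, at the BAX start and at the outer SESN1 start, and 1 was lower (5.56%), the CDKN1A start. The other 12 overlapped. In the mean 12 of the 18 were higher and 6 lower, with a median difference of +2.63 points compared with -0.291 over all 25519. These counts describe loci that share libraries and in part share a gene, and no test of the list was made.

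No gene or locus passed an adjusted p of 0.05 in the exact permutation tests, whether among the 9 genes or over all 18733 genes and 25519 loci, and 0 had an unadjusted p under 0.05. With 4 libraries against 2 there are 15 assignments, and the smallest two-sided p they can give is 0.133. Hence a p of 0.133 marks any gene or locus whose groups are at their most extreme assignment, and 0.05 could not be reached.

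**Figure D4:**
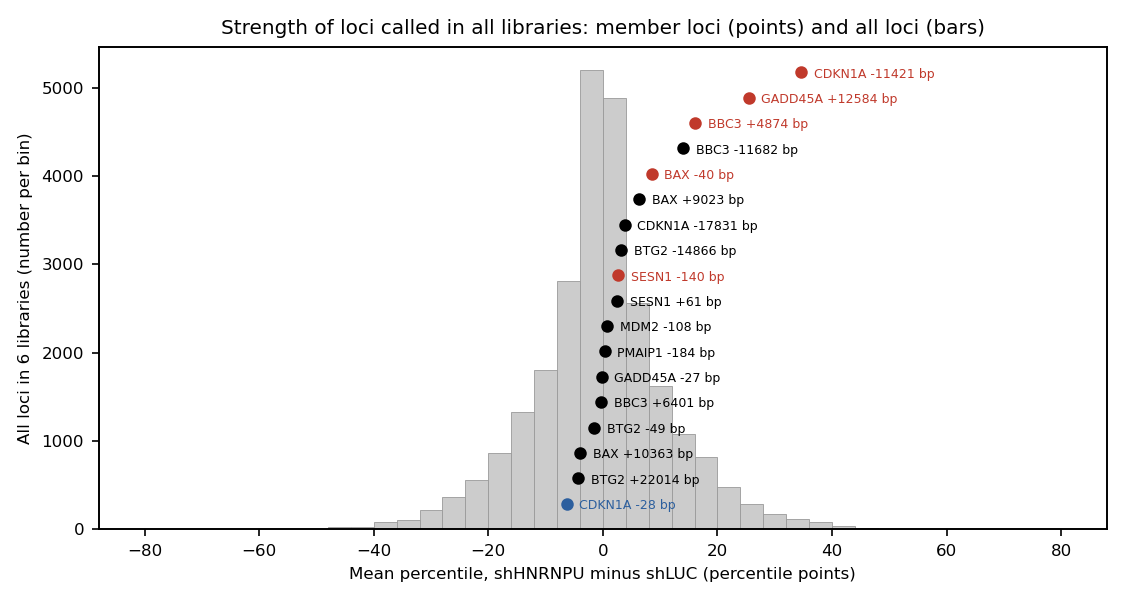
Difference in mean percentile, shHNRNPU minus shLUC in percentile points (horizontal axis), for the 18 loci present in all 6 libraries, named by gene and distance in bp, beside the spread of the difference over all 25519 such loci. Red marks the 5 loci at which all 4 shHNRNPU libraries were above both shLUC libraries, blue the 1 locus at which they were below, and black the 12 that overlapped.

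The hairpins could be set side by side, with 2 libraries each. Of the 57 loci, 1 was present in both shHNRNPU #1 libraries and no other (1.28% of all loci had this pattern), and 2 were present in both shHNRNPU #2 libraries and no other (0.620% of all loci). At the separated loci both hairpins lay on the same side of shLUC in every library, which the definition of a separated locus fixes.

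The other genes of the p53 pathway were read in the same way from a list of 40 regulators and targets, all of them in the gene table and 39 with a summit in every library. More summits in every shHNRNPU than in every shLUC library were found at 3 of the 40 (7.5%) and fewer at 1 (2.5%), beside 3.54% and 3.92% of all genes. CHEK2, a checkpoint kinase that phosphorylates p53, had 5 and 5, 5 and 4, and 3 and 3 summits with shHNRNPU #1, shHNRNPU #2 and shLUC. TP53BP1, a DNA damage response protein that binds p53, had 4 and 4, 5 and 5, and 3 and 3 in that order. GADD45B, a paralogue of GADD45A, had 8 and 7, 7 and 7, and 6 and 6. The gene with fewer was POLH, which encodes a translesion DNA polymerase, with 3 in each shHNRNPU library and 4 in each shLUC library. All 4 separated genes had p = 0.133 in the exact permutation test and an adjusted p of 1.00.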

How the data were processed

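ATAC-seq was measured in 6 libraries, which were grouped by the hairpin in the sample titles. The submitters' processing notes name cutadapt, Bowtie2, SAMtools, MACS2, deepTools and the build hg38, and the roles, parameters and versions are not given in the sources used here. The deposited files are MACS2 summit lists, 1 per library, with a base position and a score that the authors' peak caller wrote as −log10 of a p-value or q-value (the lowest score is 1.30 in each list). Peak widths, read counts and depth are unknown, so no interval for counting error can be given, and a missing summit may be one just under the authors' threshold.

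Positions were converted to start from 1. Summits within 250 bp were joined into loci, percentiles were taken within each library, and genes and promoters came from RefSeq (GRCh38.p14) with a window of 20 kb. Groups were compared with the two-sided exact permutation test over libraries, on all genes or loci, with Benjamini-Hochberg adjustment and a threshold of 0.05. The scripts used Python 3.11.15, numpy 2.4.6, pandas 2.3.3, scipy 1.17.1 and matplotlib 3.10.9 and were tested on simulated summit lists.

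The members and lists were chosen with earlier results of these data known. Named were all 9 genes, the locus nearest each start within 2000 bp, lost and gained loci, the 3 shared loci with the largest difference in each direction whose groups do not overlap, and the 3 other pathway genes with the largest difference in each direction. Further loci in the text were chosen after their values were seen. Alternatives were scores of at least 5, lists of 52168 summits each, windows of 10 kb, matching within 100 or 500 bp, absence judged within 1000 bp, scores in place of percentiles, a replicate block and leaving out each library. For the separated loci the alternatives were added after seeing the data.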

Additional observations from a re-analysis of the deposited data

Results flagged for a closer look

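Among the 4 shHNRNPU libraries, 16 measures of the 9 genes were examined for a library whose gap to the nearest other exceeded Dixon's 95% critical share of the range, and 4 were flagged where chance gives about 0.8. All 4 are small summit numbers in which the 3 other libraries tie, so that any departure is flagged. The summit number was 2 at MDM2 in shHNRNPU #1 repeat 1, 2 at GADD45A in shHNRNPU #2 repeat 1, 2 at SESN1 in shHNRNPU #1 repeat 2 and 3 at BTG2 in shHNRNPU #2 repeat 1.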

How the results depend on the processing

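With 2 shLUC libraries, a count of separated genes or loci turns on each of them. Leaving out each library in turn, lost loci ranged from 1 to 8 (8 without shLUC repeat 1, 3 without shLUC repeat 2, 2 without shHNRNPU #1 repeat 1) and gained loci from 0 to 1. Genes with fewer summits ranged from 1 to 4 (4 without shLUC repeat 1, 2 without shHNRNPU #1 repeat 1), and genes with more from 1 to 3 (3 without shLUC repeat 1, 2 without shLUC repeat 2). No gene had more with scores of at least 5 or with 10 kb windows (0 in each). The difference in summits over the 9 windows was -1.75 and became 0.75 with scores of at least 5 and 0.25 with lists of one size, ranging from -4.25 to 0.75 on leaving out a library. That in percent of summits was 0.000456, became 0.00334 with scores of at least 5, and ranged from -0.00396 to 0.00487.

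Directions turned as follows. With scores of at least 5 the difference in summit number was -0.25 at BBC3, 1.25 at GADD45A and -1.25 at PMAIP1. With lists of one size it was 0.75 at GADD45A. With 10 kb windows it was -0.50 at BBC3 and -0.25 at FAS. Leaving out a library gave -1.75 to 2.25 at BBC3, and at the start loci -0.456 to 2.24 percentile points for MDM2 and -0.728 to 1.43 for PMAIP1. With scores in place of percentiles BTG2 gave 0.292. A count of 1 did not always name the same member. The lost locus was at BBC3, at 47210903, in place of SESN1 with scores of at least 5 or matching within 100 bp, the gene with fewer summits was PMAIP1 in place of SESN1 with scores of at least 5, and the gene with more was FAS in place of PMAIP1 with lists of one size. The CDKN1A locus before the start was higher under every alternative run on it (23.5 to 45.7 points on leaving out a library). The other 268 values did not turn in a tested difference, moved by less than 1 SD in an untested one or, for counts, stayed within 1.5 times the reported count. Differences that fell to 0 are among them, as in summit number at MDM2 and SESN1 with scores of at least 5.

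No pairing by repeat number was seen, as deviations from the group means correlated at -0.0636, -0.0258 and 0.0296 between groups over 18733 genes. With 2 libraries in each group or hairpin, these values do not show whether libraries of the same repeat number were handled together. With the replicate block, 9 assignments remain, and the p for SESN1 and PMAIP1 was 0.222, the smallest they can give. Fits without 1 shLUC library are values with no test.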
